A study of Mus musculus with 39 samples.

Results

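The comparison described here is of anti-PD-1 antibody with vehicle after 2 days of treatment in a transplanted Braf-mutated mouse melanoma. Its 9 bulk RNA libraries, 4 from anti-PD-1 tumours (replicates 1, 2, 4 and 5) and 5 from vehicle tumours (replicates 1 to 5), were chosen by the labelled treatment and labelled time point from 39 libraries in all. All 9 came from tumours in C57BL/6 mice, whose treatment started 7 days after the tumour cells were injected. Anti-PD-1 was dosed at 200 µg every few days, and the vehicle group received the solvent of the study's other drug, a DMSO-PEG400 and water mixture given bidaily at 200 µl. The labels do not say whether the anti-PD-1 group also received that solvent, nor whether an isotype antibody was given to the vehicle group, so antibody and solvent cannot be told apart as the difference between the groups. The remaining libraries came from tumours given EPAT, which blocks EP2 and EP4, receptors of prostaglandin E2, or the combination of EPAT and anti-PD-1, or were taken on day 5. Nothing in the labels says that each library had its own animal, so a p-value here reflects only how these samples vary, which may in part be technical.

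PD-1 is an inhibitory receptor on activated T cells and, at lower levels, on other lymphocytes. Its ligands PD-L1 and PD-L2 are carried by tumour cells and myeloid cells, and an antibody against PD-1 prevents the ligands from dampening T cell signalling. T cells and natural killer (NK) cells that are released from this restraint secrete interferon-gamma, which acts through its receptor and JAK-STAT signalling to raise guanylate-binding proteins, antigen presentation genes, T cell-attracting chemokines and PD-L1 itself in surrounding cells.

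The libraries held 10132830 to 14296918 counts per anti-PD-1 library and 8385741 to 15060936 per vehicle library. The melanocyte genes Tyr and Tyrp1 reached at most 1 count in any of the 9 libraries and Mlana at most 2, so the pigment-cell markers of the labelled tumour type were absent or nearly so, while the melanocyte regulator Mitf stood at 33.4 to 55.8 CPM (counts relative to library size). Several libraries carried transcripts of neighbouring tissue. A list score, which averages log2 CPM over those members of a list that were measured, was 7.70, 4.39, -1.20 and 7.74 for 12 skeletal muscle genes in anti-PD-1 replicates 1, 2, 4 and 5, and -0.02, 4.48, -0.52, -0.69 and 4.73 in vehicle replicates 1 to 5. Muscle transcripts were thus highest in anti-PD-1 replicates 1 and 5 and lowest in anti-PD-1 replicate 4. The creatine kinase gene Ckm was at 174, 17.9, 0 and 176 CPM in the anti-PD-1 libraries and at 0.301, 15.7, 0.0804, 0.323 and 20.2 CPM in the vehicle libraries. Vehicle replicate 1 alone carried B cell and lymph node genes, with a B and plasma cell score of 5.41. The remaining vehicle libraries had -0.20 to 0.56 and the anti-PD-1 libraries 0.02 to 1.64. The adipocyte score was 2.00, 1.38, 5.28 and 2.61 in the anti-PD-1 libraries and 6.53, 0.63, 4.28, -0.95 and 2.69 in the vehicle libraries. The adipocyte median log2 fold change of -0.74 was -2.98 without anti-PD-1 replicate 4 and 1.21 without vehicle replicate 1. Vehicle replicate 2 had the highest keratinocyte score at 3.59, against -0.93 to -0.28 in the anti-PD-1 libraries. Gm42418, which overlaps ribosomal RNA sequence, took 7.99%, 8.65%, 3.09% and 7.88% of the counts in the anti-PD-1 libraries and 2.60% to 6.99% in the vehicle libraries. In muscle score and Gm42418 share, anti-PD-1 replicate 4 was the lowest of its group.

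**Figure D1:**
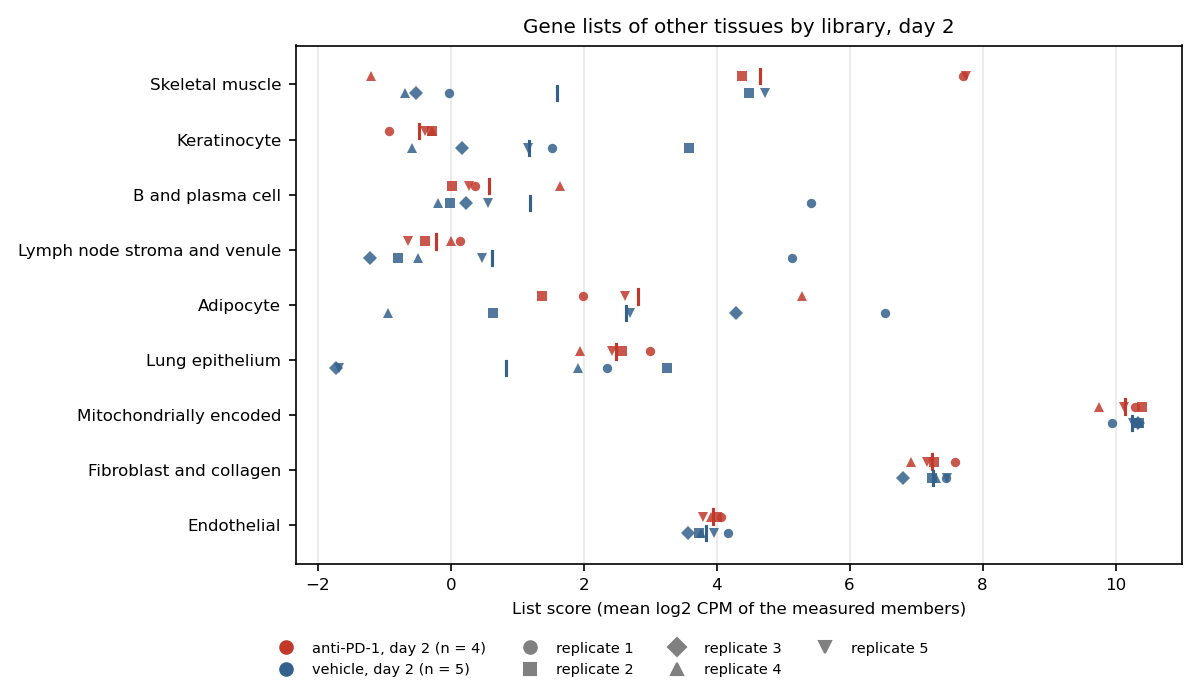
Scores of gene lists of other tissues (horizontal axis: mean log2 CPM over measured members) in the 4 anti-PD-1 (red) and 5 vehicle (blue) libraries of day 2, with replicate numbers as marker shapes and group means as vertical bars. Muscle scores spread from -1.20 to 7.74 within the anti-PD-1 group, and the B and plasma cell score is high in vehicle replicate 1 only, at 5.41.

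No gene passed the test across all genes. Of 15070 genes fitted with edgeR's quasi-likelihood test, 0 (0%) had an adjusted p under 0.05, and the smallest adjusted p was 0.524. At an unadjusted p under 0.05 there were 1073 genes, 651 of them higher with anti-PD-1 (4.32% of genes) and 422 lower (2.8%). With libraries scaled by their total counts instead of TMM that split was 483 higher and 590 lower. It was 735 higher and 858 lower without anti-PD-1 replicate 4, and 1632 and 1718 in limma-voom with sample quality weights. Every other alternative had more genes higher than lower. DESeq2 called 2 genes and limma-voom with sample quality weights called 4, as given with each gene where it is described. Over all genes 47.7% had a log2 fold change above 0 and the median log2 fold change was -0.01. There were 246 genes (1.63%) whose lowest anti-PD-1 library lay above the highest vehicle library and 241 (1.6%) with the reverse order. The named genes and lists below are therefore descriptions of direction and size, and none of their differences passed adjustment in edgeR. Lists and members were chosen with earlier results of these data known, so a list that separates the groups is not independent support. Counts of list members at an unadjusted p under 0.05 stand beside the 4.32% of all genes that were higher at it. That share was 2.36% with the muscle score as a term in the model and 3.84% without vehicle replicates 1 and 2. Counts of members without overlap stand beside 1.63%. In these bulk samples more cells of a type and more RNA per cell cannot be told apart.

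The interferon-gamma pathway list was displaced upward in every one of its measured members. It runs from the cytokine and its receptor to signal transducers and feedback inhibitors. It also holds Irf1, and Stat2 and Irf9 of type I interferon signalling. Of its 12 members, 12 had a log2 fold change above 0, with a median of 0.56. There were 6 with an unadjusted p under 0.05, against 4.32% of all genes. Without anti-PD-1 replicate 5 the median was 0.33 with 2 members under that p, and 3 were under it without vehicle replicate 3. Ifng, the cytokine, was at 1.5, 4.10, 7.91 and 8.49 CPM in the anti-PD-1 libraries and at 1.51, 0.5, 1.85, 3.88 and 3.34 CPM in the vehicle libraries. The groups overlapped, anti-PD-1 replicate 1 lying inside the vehicle range, and the log2 fold change of 1.29 ± 0.68 (SE) had an unadjusted p of 0.0664 in edgeR. Ifngr1, the ligand-binding receptor chain, was at 137, 119, 199 and 138 CPM with anti-PD-1 against 98.6, 91.7, 97.5, 89.5 and 110.3 CPM with vehicle. Its groups did not overlap, and the log2 fold change was 0.61 ± 0.26.

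Stat2 and Irf9, parts of the complex that answers type I interferon, differed by 0.70 ± 0.28 and 0.50 ± 0.21, and by 0.36 and 0.30 without anti-PD-1 replicate 5. Irf1, an interferon-induced transcription factor, differed by 0.84 ± 0.37. Socs1, a feedback inhibitor of the JAK kinases, differed by 0.73 ± 0.51 with an unadjusted p of 0.158, and anti-PD-1 replicate 4 was below all vehicle libraries at 11.9 CPM.

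Of 22 measured genes of the interferon-gamma response list, 22 had a log2 fold change above 0 (47.7% of all genes did). There were 12 with an unadjusted p under 0.05, against 4.32% of all genes. The median log2 fold change was 0.97 and the range 0.53 to 1.98, beside a median of -0.01 over all genes. Anti-PD-1 replicate 5 had a list score of 7.29, while the other 3 anti-PD-1 libraries had 5.93, 6.00 and 6.03 and the vehicle libraries 5.52, 4.94, 4.86, 5.90 and 5.83. The 3 lower anti-PD-1 libraries therefore exceeded the highest vehicle library by little. Without anti-PD-1 replicate 5 the median was 0.52, and 2 of the 22 members had an unadjusted p under 0.05, against 2.06% of all genes. Without vehicle replicate 2 and without vehicle replicate 3 there were 7. Without vehicle replicates 1 and 2 the median was 0.83 and 3 members were under that p. With the muscle score as a term in the model the median was 1.00 and 14 members were under it.

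**Figure D2:**
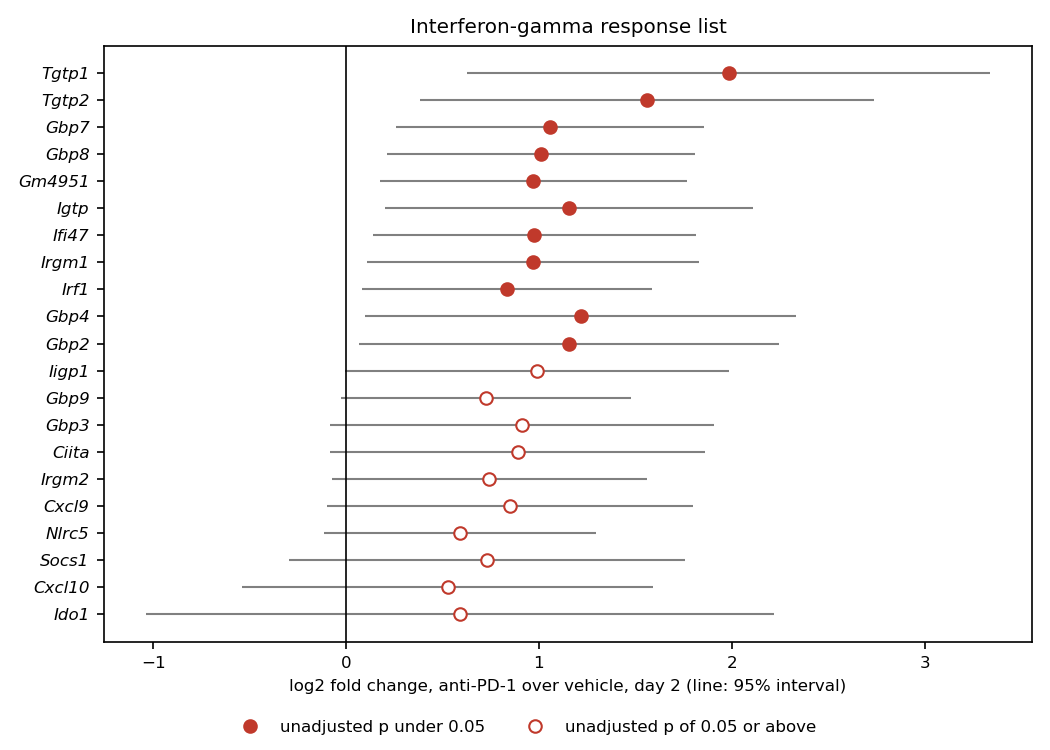
Log2 fold change of anti-PD-1 over vehicle on day 2 for 21 of the 22 measured members of the interferon-gamma response list, with 95% intervals from the edgeR fit and filled points for an unadjusted p under 0.05. All 21 points lie above 0, between 0.53 and 1.98, and 11 are filled.

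The effectors on this list are mostly interferon-induced GTPases that attack the vacuoles of intracellular microbes. Tgtp1, a GTPase of the immunity-related family, was at 22.4, 17.9, 5.91 and 43.7 CPM with anti-PD-1 and at 9.27, 5.99, 0.965, 6.34 and 5.86 CPM with vehicle. Anti-PD-1 replicate 4 lay inside the vehicle range and vehicle replicate 3 lay far below the others, and the log2 fold change was 1.98 ± 0.67. The adjacent copy Tgtp2 differed by 1.56 ± 0.58; reads of these near-identical genes may have been split between them, so each value is uncertain. Igtp, of the same family, was at 126, 122, 225 and 430.2 CPM against 85.9, 62.9, 76.5, 141 and 140.1 CPM, a log2 fold change of 1.16 ± 0.47. Gbp7, a guanylate-binding protein, was at 306, 293, 378 and 859 CPM against 196, 162, 165, 269 and 309 CPM, a log2 fold change of 1.06 ± 0.39 that was 0.56 without anti-PD-1 replicate 5. In Igtp, anti-PD-1 replicates 1 and 2 lay below vehicle replicates 4 and 5, and in Gbp7 both lay below vehicle replicate 5.

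The proximal promoters of these genes show the elements through which interferons act. The windows below are shown because STAT dimers bind the gamma-activated site (GAS, searched as TTCNNNGAA) and STAT and IRF complexes bind the interferon-stimulated response element (ISRE, searched as GAAANNGAAA), each on both strands. They belong to the 4 list members with the smallest p whose RefSeq promoter entry held a match and could be shown. Capitals mark the matches, each window reads 5′ to 3′ on the gene's strand, and positions are on GRCm38.p6.
Tgtp1: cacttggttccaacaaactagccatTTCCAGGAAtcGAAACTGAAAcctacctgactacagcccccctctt
Tgtp2: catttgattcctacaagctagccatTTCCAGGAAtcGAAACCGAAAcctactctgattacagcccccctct
Gbp7: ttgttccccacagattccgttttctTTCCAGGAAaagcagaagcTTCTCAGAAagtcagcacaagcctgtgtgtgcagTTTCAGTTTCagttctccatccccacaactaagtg
Igtp: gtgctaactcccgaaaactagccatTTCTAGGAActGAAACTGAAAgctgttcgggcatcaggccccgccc
Tgtp1 lies at chr11:48992289-48992359 and Tgtp2 at chr11:49064248-49064318, both on the minus strand, and Igtp at chr11:58199486-58199556 and Gbp7 at chr3:142530205-142530317 on the plus strand. In Tgtp1, Tgtp2 and Igtp a GAS match stands just upstream of an ISRE match, whereas Gbp7 has 2 GAS matches followed by an ISRE match on the opposite strand. A RefSeq window of 300 bases (250 before to 50 after the start) was found for 13 of the 22 measured members, and 11 of the 13 (84.6%) held at least 1 match, 6 a GAS match and 10 an ISRE match. Among the 27025 genes with such a window 12.9% held at least 1 match, 9.55% a GAS match and 3.99% an ISRE match. Other lists described below held matches too. Of 17 type I interferon genes with a window 11 held at least 1 match, 3 a GAS match and 10 an ISRE match. At least 1 match was held by 5 of 14 MHC class I genes, 4 of 16 paired myeloid receptor genes and 1 of 7 NK cell receptor genes. Among the 10 inflammatory monocyte genes with a window 3 held a GAS match and 0 an ISRE match. A match is a match of letters and was not tested as a binding site.

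Chemokines that draw CXCR3-bearing T cells did not separate the groups. Cxcl9 was at 313, 344, 857 and 1243 CPM with anti-PD-1 and at 295, 259, 322, 428 and 609 CPM with vehicle. Anti-PD-1 replicates 4 and 5 exceeded all vehicle libraries and replicates 1 and 2 did not, with a log2 fold change of 0.85 ± 0.47 and an unadjusted p of 0.0768 in edgeR. On leaving out anti-PD-1 replicate 5 the log2 fold changes were 0.40 for Cxcl9, 0.0107 for Cxcl10 and 0.41 for Cxcl11. With all libraries Cxcl10 differed by 0.53 ± 0.53 and Cxcl11 by 1.18 ± 0.46, the latter with 26.9 CPM in anti-PD-1 replicate 5 against 6.33 to 7.79 CPM in the other anti-PD-1 libraries and 2.25 to 8.66 CPM with vehicle.

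The type I interferon list, of antiviral genes, behaved much like the interferon-gamma response list in its dependence on a single library. Of 24 measured members, 24 had a log2 fold change above 0. There were 12 with an unadjusted p under 0.05, against 4.32% of all genes, and the list median was 0.81. Its score was 6.28 in anti-PD-1 replicate 5 and 4.86, 4.5 and 4.87 in anti-PD-1 replicates 1, 2 and 4, inside the vehicle range of 3.80 to 4.95. Without anti-PD-1 replicate 5 the median was 0.30, 19 members were above 0 and 1 had an unadjusted p under 0.05. With the muscle score as a term the 12 members under that p became 4 (median 0.67). Without vehicle replicates 1 and 2 there were 4 (median 0.71), and without vehicle replicate 2 alone 8 (median 0.70). A fit of only the vehicle and anti-PD-1 day 2 libraries that held lung transcripts, with fewer libraries than the main fit, left 2. The median in that fit was 0.84, with 24 of 24 members above 0. Oas2, whose product makes the messenger that activates RNase L, was at 15.4, 12.9, 18.8 and 28.8 CPM against 10.4, 3.62, 6.11, 13.6 and 8.21 CPM, a log2 fold change of 1.17 ± 0.36. Anti-PD-1 replicate 2 was below vehicle replicate 4 in this gene. Zbp1, a sensor of left-handed nucleic acids, differed by 1.11 ± 0.40 and Ddx58, which encodes the RNA sensor RIG-I, by 0.70 ± 0.26, and these were 0.62 and 0.33 without anti-PD-1 replicate 5.

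**Figure D3:**
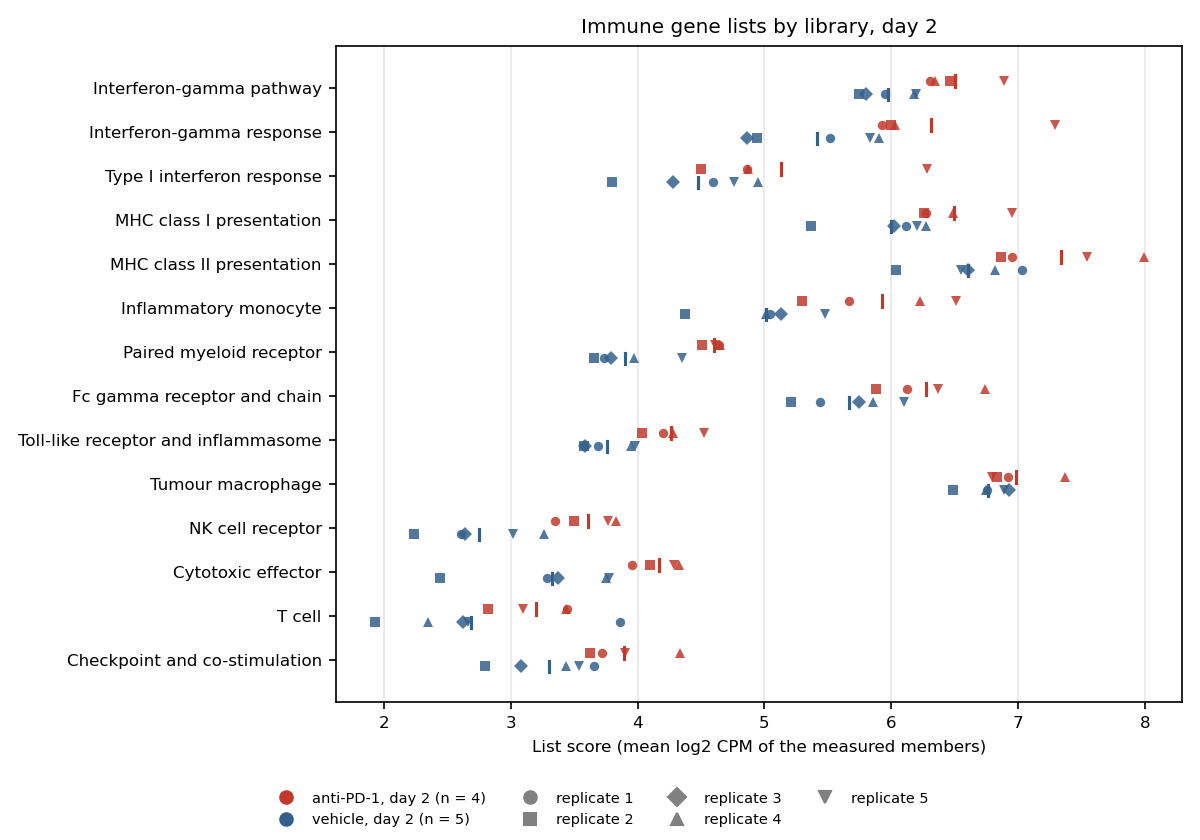
Scores of 14 immune gene lists (horizontal axis: mean log2 CPM of the measured members) by library on day 2, anti-PD-1 in red and vehicle in blue, with replicate numbers as marker shapes and group means as vertical bars. Paired myeloid receptor scores lie between 4.51 and 4.65 in the anti-PD-1 libraries and between 3.66 and 4.35 in the vehicle libraries, whereas anti-PD-1 replicate 5 stands away from its group in both interferon response lists.

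Antigen presentation genes were mostly above 0, and the list scores of the groups overlapped. Of 16 class I genes, 14 had a log2 fold change above 0, with a median of 0.56. An unadjusted p under 0.05 was seen in 5, against 4.32% of all genes. Scores were 6.27, 6.26, 6.49 and 6.95 with anti-PD-1 and 5.37 to 6.27 with vehicle, so replicates 1 and 2 were at the upper end of the vehicle range. Leaving out anti-PD-1 replicate 4, anti-PD-1 replicate 5 or vehicle replicate 2 left 3 members under that p, leaving out anti-PD-1 replicate 2 gave 8, and the median was 0.39 without anti-PD-1 replicate 5. B2m, the light chain of class I molecules, was at 8571, 6456, 7677 and 12303 CPM with anti-PD-1 and at 5402, 5165, 5353, 4882 and 6606 CPM with vehicle. Anti-PD-1 replicate 2 lay below vehicle replicate 5 and the other 3 above all vehicle libraries, and the log2 fold change was 0.68 ± 0.22. Tap1, a subunit of the peptide transporter, differed by 0.89 ± 0.30 and its partner Tapbp by 0.66 ± 0.28, the latter 0.40 without anti-PD-1 replicate 5. H2-Q6 was at 6.42, 4.61, 4.41 and 4.39 CPM against 2.86, 1.25, 1.21, 2.78 and 2.34 CPM without overlap, but it shares sequence with other class I genes and its counts are uncertain.

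Of 9 class II genes, 8 had a log2 fold change above 0, with a median of 0.82. An unadjusted p under 0.05 was seen in 6, against 4.32% of all genes. Scores were 6.95, 6.86, 7.99 and 7.54 with anti-PD-1 and 6.03 to 7.03 with vehicle, so replicates 1 and 2 lay below the highest vehicle library, replicate 1. Without anti-PD-1 replicate 4 the median was 0.48 and 1 member was under that p. Without vehicle replicate 2 there were 3 under it, and without vehicle replicates 1 and 2 the median was 0.73 with 2 members under it. H2-Eb1, a class II beta chain, was at 671, 547, 1176 and 725 CPM against 420.1, 345, 472, 529 and 433 CPM. Its groups did not overlap and anti-PD-1 replicate 4 was the highest, with a log2 fold change of 0.83 ± 0.36. Ctss, the protease that trims the invariant chain, was at 1383, 1306, 1461 and 1624 CPM against 626, 842, 663, 986 and 970.5 CPM. This gap was clear of the vehicle range in all 4 anti-PD-1 libraries, and the log2 fold change was 0.82 ± 0.27 with an unadjusted p of 0.00496 in edgeR. H2-DMa, which loads peptides onto class II molecules, was at 155 and 130.2 CPM in anti-PD-1 replicates 4 and 5 and, at 60.6 and 57.7 CPM, within the vehicle range of 37.5 to 64.4 CPM in replicates 1 and 2.

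Genes of inflammatory monocytes, the bone-marrow cells that enter tumours through the chemokine receptor CCR2, were above 0 in every measured member. Of 11 measured members, 11 had a log2 fold change above 0, with a median of 1.03. An unadjusted p under 0.05 was seen in 7, against 4.32% of all genes. Ccr2 was at 114, 85.5, 128 and 211 CPM with anti-PD-1 and at 50.6, 34, 60.6, 80.7 and 70.5 CPM with vehicle. All 4 anti-PD-1 libraries lay above all 5 vehicle libraries, replicate 2 only just, and the log2 fold change was 1.18 ± 0.32 (95% interval 0.53 to 1.83, unadjusted p = 0.000786). Plac8, a gene of monocytes and other leukocytes, was at 130.3, 130.1, 133 and 368 CPM against 74.8, 24.2, 58.5, 105 and 74.9 CPM, also without overlap, a log2 fold change of 1.49 ± 0.43, and 0.96 without anti-PD-1 replicate 5. Ly6c2, the surface antigen that defines inflammatory monocytes, was at 63.6, 48.1, 70.7 and 188 CPM against 25.3, 11.2, 23.7, 49.3 and 50.4 CPM, and anti-PD-1 replicate 2 lay inside the vehicle range. Ly6i, its neighbour in the Ly6 cluster, was at 7.34, 12.5, 7.82 and 27.5 CPM against 1.21, 3.37, 0.402, 3.62 and 4.42 CPM, a log2 fold change of 2.41 ± 0.71. Ly6 genes resemble each other, so the assignment of their reads is uncertain. Without anti-PD-1 replicate 5 the list's median was 0.69 and 3 members had an unadjusted p under 0.05, and with the muscle score as a term it was 0.82 with 6 members under it.

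Tumour macrophage genes differed less, with 13 of 16 above 0 (12 under total-count scaling) and a median of 0.28. Without anti-PD-1 replicate 4 that median was 0.0144 with 9 of 16 above 0. Of 10 neutrophil genes 8 were above 0 with a median of 0.56, which was 0.33 without vehicle replicate 3, 1.07 without vehicle replicate 5 and 0.29 with the muscle score as a term. Csf3r, the receptor for granulocyte colony-stimulating factor and a neutrophil gene, was at 6.34, 6.46, 3.00 and 5.42 CPM against 0.829, 1.25, 1.85, 1.62 and 2.62 CPM. Among 13 dendritic cell genes 9 were above 0 with a median of 0.35, and this value depended on single libraries. It was -0.0112 with 6 of 13 above 0 without anti-PD-1 replicate 4, and 0.81 without vehicle replicate 1. It was 0.60 and 0.63 without anti-PD-1 replicates 1 and 2, and 0.19, 0.18 and 0.21 without vehicle replicates 2, 3 and 5. In the libraries with lung transcripts it was 0.00607. Batf3, the transcription factor required by cross-presenting dendritic cells, was at 14.3, 7.07, 15.9 and 17.1 CPM against 5.58, 3.50, 5.55, 6.47 and 7.21 CPM. Anti-PD-1 replicate 2 lay just below vehicle replicate 5, and the log2 fold change was 1.26 ± 0.35 (unadjusted p = 0.00089).

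Paired activating and inhibitory receptors of myeloid cells, a list chosen with earlier results of these data known, separated the groups in their mean log2 score. Their scores were 4.64, 4.51, 4.65 and 4.61 with anti-PD-1 and 3.74, 3.66, 3.79, 3.97 and 4.35 with vehicle, so all anti-PD-1 libraries stood above the vehicle range. Summed CPM overlapped, however, with 844.7 in anti-PD-1 replicate 2 and 872 in vehicle replicate 5. Of 19 measured members, 18 had a log2 fold change above 0, with a median of 0.70. There were 8 with an unadjusted p under 0.05 (against 4.32% of all genes) and 4 without overlap (against 1.63%). Without anti-PD-1 replicate 5 the median was 0.73 and 7 members were under that p, and without vehicle replicates 1 and 2 it was 0.45 with 3 members under it. Without vehicle replicate 1 alone 4 were under it, and with the muscle score as a term the median was 0.53 and 5 were under it. Cd200r1, the inhibitory receptor for CD200, was at 14.2, 8.91, 12.6 and 10.4 CPM against 4.90, 5.24, 5.39, 5.95 and 6.04 CPM. Its groups were well apart, with a log2 fold change of 1.06 ± 0.33. Cd200r4, an activating relative, was at 14.8, 13.5, 7.24 and 25.8 CPM against 3.17, 4.75, 3.54, 7.18 and 7.58 CPM. Here anti-PD-1 replicate 4 lay inside the vehicle range, and the log2 fold change was 1.55 ± 0.37 (unadjusted p = 0.000176). Pirb, an inhibitory receptor for class I molecules, differed by 1.08 ± 0.38 and Clec4e, the activating lectin Mincle, by 1.42 ± 0.52, both without overlap.

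Innate sensing genes followed the same direction. Of 17 Toll-like receptor and inflammasome genes 17 were above 0, with a median of 0.48. The list score was 4.04 to 4.53 with anti-PD-1 and 3.58 to 3.98 with vehicle. An unadjusted p under 0.05 was seen in 3, against 4.32% of all genes. There was 1 member under that p without anti-PD-1 replicate 5, there were 2 without vehicle replicate 2, and without anti-PD-1 replicate 2 there were 6. The members under it with all libraries were 2 decoys or antagonists, Il1rn and Il18bp, and the cytokine Il18. Il1rn, the interleukin-1 receptor antagonist, was at 56.0, 75.0, 67.3 and 89.9 CPM against 30.2, 28.3, 17.8, 38 and 45.5 CPM without overlap. Il18bp, which captures interleukin-18, differed by 1.09 ± 0.45. Of 9 Fc gamma receptor genes 9 were above 0 with a median of 0.62, and Fcgr4, an activating receptor for IgG2 antibodies, was at 166, 99.8, 275 and 291 CPM against 57.0, 54.9, 139, 115 and 166 CPM, with overlap. Of 15 CC chemokine genes 13 were above 0 with a median of 0.78, which was 0.44 without anti-PD-1 replicate 4 and 0.52 in the libraries with lung transcripts. Ccl4, a chemokine of activated T cells and macrophages, differed by 0.94 ± 0.39, and Ccl5, made by T cells and NK cells, by 1.07 ± 0.45 with 310.4 CPM in anti-PD-1 replicate 4 and by 0.66 without that library. Of 12 NF-kappaB feedback genes 12 were above 0, with a median of 0.37, and 0.24 without anti-PD-1 replicate 5.

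NK cell receptor genes separated the groups in their mean log2 score but not in their summed CPM. Scores were 3.35, 3.50, 3.83 and 3.77 with anti-PD-1 and 2.61, 2.24, 2.64, 3.26 and 3.02 with vehicle, vehicle replicate 4 coming closest. Summed CPM was 494, 460.4, 548 and 452 against 313, 518, 462, 367 and 427, with vehicle replicate 2 above 3 of the 4 anti-PD-1 libraries. Of 12 members 12 had a log2 fold change above 0, with a median of 0.91. There were 5 with an unadjusted p under 0.05 (against 4.32% of all genes) and 4 without overlap (against 1.63%). Under total-count scaling 11 were above 0. Without anti-PD-1 replicate 5, 2 members were under that p, and without vehicle replicates 1 and 2, 1 was, with medians of 0.86 and 0.68. Leaving out vehicle replicate 2 or vehicle replicate 3 alone left 3. Cd226, an activating receptor of NK and T cells that PD-1 signalling can inactivate, was at 11.7, 4.92, 6.58 and 7.39 CPM against 3.24, 1.87, 2.01, 2.84 and 1.80 CPM. Its groups were separate in every library, with a log2 fold change of 1.69 ± 0.46 (95% interval 0.76 to 2.61, unadjusted p = 0.000761). Klrk1, which encodes the activating receptor NKG2D, was at 20.3, 24.3, 30.5 and 39.5 CPM against 7.23, 11.7, 11.1, 16.4 and 23 CPM, with anti-PD-1 replicate 1 inside the vehicle range.

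Of 14 cytotoxic effector genes 14 were above 0, with a median of 0.84. An unadjusted p under 0.05 was seen in 2 (14.3%), against 4.32% of all genes. Such a p was seen in 1 without anti-PD-1 replicate 4, and in 3 without anti-PD-1 replicate 1 or without vehicle replicate 4. Prf1, whose product perforates target cell membranes, was at 9.84, 8.81, 8.91 and 15.0 CPM against 6.25, 2.75, 2.73, 3.56 and 4.42 CPM. The groups did not overlap and the log2 fold change was 1.43 ± 0.44 (unadjusted p = 0.00243). Tbx21, which encodes the lymphocyte transcription factor T-bet, was at 8.42, 5.74, 11.9 and 10.8 CPM against 5.43, 0.624, 3.78, 3.81 and 5.05 CPM, also without overlap. Gzmb, the protease that Prf1 delivers, differed by 0.98 ± 0.57, and anti-PD-1 replicate 4, at 17 CPM, lay inside the vehicle range of 9.24 to 26.2 CPM.

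T cell genes themselves were displaced less. Of 19 measured members 16 were above 0, with a median of 0.39. Only Zap70 had an unadjusted p under 0.05, and 1 of 19 (5.26%) is near the 4.32% of all genes. Cd8a, the CD8 co-receptor chain, was at 21.2, 9.43, 16.2 and 12.5 CPM with anti-PD-1 and at 21.5, 6.99, 15.5, 6.72 and 10.6 CPM with vehicle. The ranges coincided, with a log2 fold change of 0.27 ± 0.63 (95% interval -1.01 to 1.55). The highest vehicle value belonged to replicate 1, the library with B cell and lymph node genes, and without that library the list's median was 0.85. The median was 0.26 without vehicle replicate 4, and 0.19 with 13 of 19 above 0 with the muscle score as a term. Sh2d2a, an adaptor of the T cell receptor, was at 25.8, 16.5, 23.1 and 17.9 CPM against 11.5, 8.62, 11.4, 11.2 and 12.4 CPM, without overlap. Of 8 regulatory T cell genes 8 were above 0 with a median of 0.67 and 0 had an unadjusted p under 0.05 (the lowest was 0.0641, of Il2ra). Without anti-PD-1 replicate 4 that median was 0.38 with 7 of 8 above 0.

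The target of the antibody and its ligands gave differing results. Pdcd1, which encodes PD-1, was at 13.8, 4.92, 13 and 9.08 CPM with anti-PD-1 and at 3.47, 4.87, 8.04, 5.24 and 8.39 CPM with vehicle. The groups overlapped through anti-PD-1 replicate 2, and the log2 fold change was 0.77 ± 0.53 with an unadjusted p of 0.155 in edgeR. Cd274, which encodes PD-L1, was at 46.3, 49.4, 50.7 and 124 CPM against 27.2, 16.5, 23.4, 26.8 and 50.1 CPM, with vehicle replicate 5 level with the lower 3 anti-PD-1 libraries. The log2 fold change was 1.23 ± 0.47, and 0.76 without anti-PD-1 replicate 5. Pdcd1lg2, which encodes PD-L2, was at 6.09, 10.5, 17.6 and 13.4 CPM against 4.22, 3.75, 1.93, 8.79 and 4.33 CPM, a log2 fold change of 1.36 ± 0.41 (unadjusted p = 0.00206). Havcr2, the checkpoint receptor TIM-3, was at 19.3, 14.6, 17 and 17.9 CPM against 9.34, 8.74, 9.64, 9.96 and 13.3 CPM, without overlap. Of the 14 measured checkpoint and co-stimulation genes 12 were above 0 with a median of 0.64.

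The genes with the smallest p among those higher with anti-PD-1 were Creb5, Kng2, Cd200r4, Gpr141, Slco3a1, Slc4a11, Lrrc25, Stom, Cd226 and Ccr2. Creb5 (chromosome 6, 53287270 to 53700376, GRCm38), a transcription factor that binds cyclic AMP response elements, was at 36.7, 30.0, 25.6 and 41.9 CPM against 14.3, 20.4, 14.5, 18.2 and 18.7 CPM. The groups were separate and the log2 fold change was 0.96 ± 0.22 (unadjusted p = 7.51e-05 in edgeR), with an adjusted p of 0.0093 in limma-voom with quality weights. Gpr141, an orphan G protein-coupled receptor, was at 19.9, 19.7, 19.2 and 52.3 CPM against 6.03, 9.49, 6.67, 13.5 and 13.8 CPM. The log2 fold change was 1.49 ± 0.36, and 0.98 without anti-PD-1 replicate 5. Kng2, a kininogen gene, was at 8.92, 1.84, 0.999 and 8.13 CPM against 0.754, 0.250, 0.643, 0.323 and 1.26 CPM, so its 2 high libraries were those with the highest muscle scores. Its log2 fold change of 2.92 ± 0.66 in edgeR was 1.65 with the muscle score as a term, and DESeq2 gave it an adjusted p of 0.0394. The other gene DESeq2 called was Igfn1, a muscle gene named here after its value was seen.

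Slco3a1, a transporter of prostaglandins and other organic anions, was at 58.0, 39.2, 62.1 and 95 CPM against 26.1, 23.4, 19.6, 31.7 and 40.1 CPM. Anti-PD-1 replicate 2 lay just below vehicle replicate 5, and the log2 fold change was 1.17 ± 0.30. Stom, a membrane scaffold protein, was at 16.8, 20.2, 19.6 and 18.4 CPM against 14.8, 13.5, 9.81, 12 and 10.9 CPM. Its log2 fold change was 0.62 ± 0.17. Slc4a11, a membrane transporter, differed by 1.05 ± 0.28 and Lrrc25, a leucine-rich repeat protein of leukocytes, by 1.33 ± 0.35, both with overlap. Among genes with the widest gaps, Vav3, a guanine nucleotide exchange factor, was at 42.9, 36.3, 36 and 40.8 CPM against 24.5, 24.7, 16.5, 22.3 and 26.6 CPM, Cbr3, a carbonyl reductase, at 5.23 to 6.59 CPM against 2.81 to 3.43 CPM, and Lynx1, a modulator of acetylcholine receptors, at 1.67 to 2.15 CPM against 0.375 to 1.05 CPM.

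**Figure D4:**
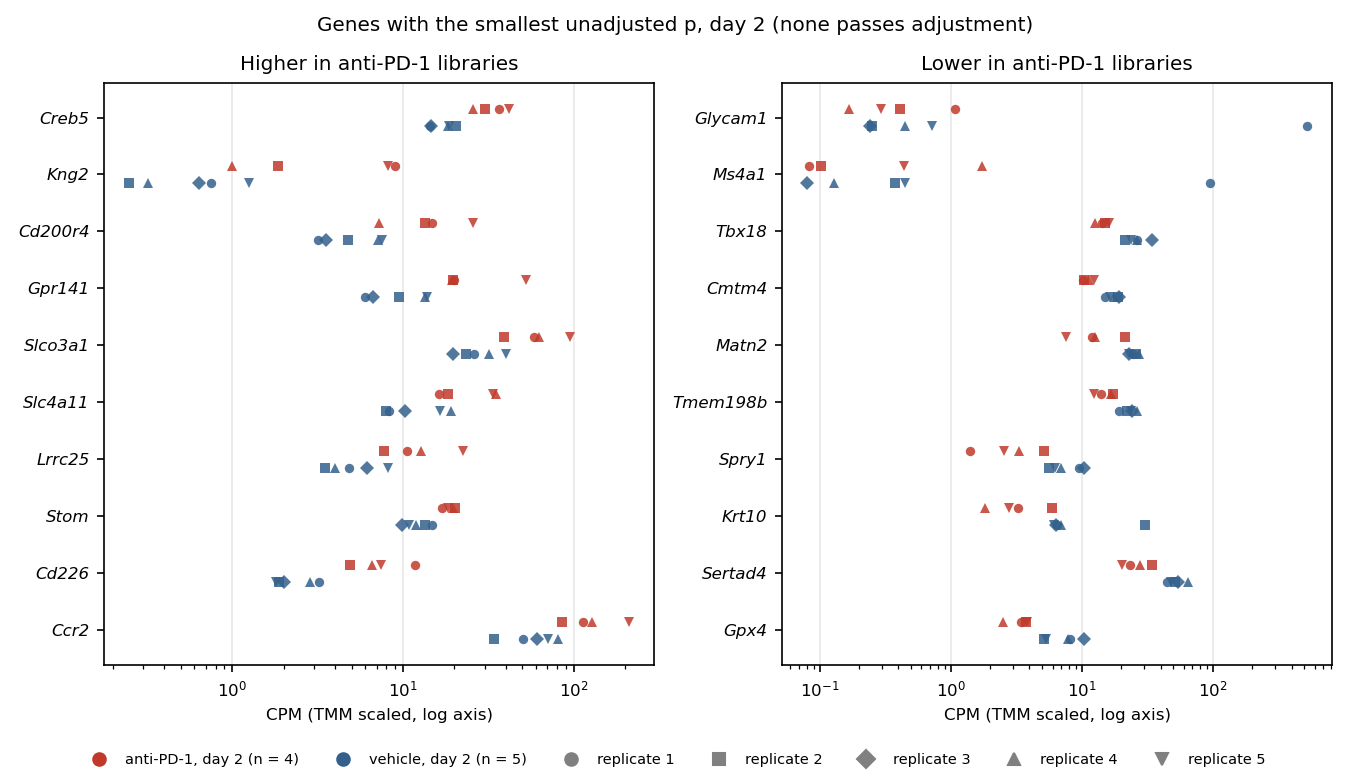
CPM (log axis) in each library for the 10 genes with the smallest unadjusted p that were higher (left) and lower (right) with anti-PD-1 on day 2 (red points: anti-PD-1, blue points: vehicle), with replicate numbers as marker shapes. Creb5 separates the groups at 25.6 to 41.9 against 14.3 to 20.4 CPM, while Glycam1 and Ms4a1 are set by vehicle replicate 1 alone at 525 and 95 CPM.

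Some genes lower with anti-PD-1 rested on a single vehicle library, and in others the groups were apart. Glycam1, an L-selectin ligand made by the high endothelial venules of lymph nodes, was at 1.08, 0.410, 0.166 and 0.293 CPM with anti-PD-1 and at 525, 0.250, 0.241, 0.453 and 0.721 CPM with vehicle. The log2 fold change of -7.73 ± 1.78 was 0.21 without vehicle replicate 1. The B cell gene Ms4a1 went from -4.98 ± 1.35 to 1.25 on leaving out the same library, and the median of 8 B and plasma cell genes from -2.54 to 0.67. Krt10, a keratin of differentiating epidermis, was at 3.25, 5.94, 1.83 and 2.78 CPM against 6.48, 30.7, 6.35, 6.98 and 6.13 CPM. Of 8 keratinocyte genes 0 were above 0, with a median of -2.74, and without vehicle replicate 2 the median was -0.74 and without vehicle replicate 1 it was -1.80.

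Spry1, a feedback inhibitor of receptor tyrosine kinase signalling, was at 1.42, 5.12, 3.33 and 2.56 CPM against 9.50, 5.62, 10.4, 6.98 and 6.22 CPM. No anti-PD-1 library reached a vehicle library, and the log2 fold change was -1.33 ± 0.39. Tbx18, a transcription factor of mesenchymal cells, was at 14.3, 15.0, 12.7 and 16.2 CPM against 26.3, 21.6, 34.6, 26.3 and 23.8 CPM, a log2 fold change of -0.87 ± 0.24. Sertad4, a SERTA-domain protein, was at 23.5, 34.3, 28.1 and 20.4 CPM against 45.1, 51.3, 54.8, 65.3 and 48.3 CPM, a log2 fold change of -1.0 ± 0.29. The groups were separate in these genes also. Cmtm4, a membrane protein that stabilises PD-L1, was at 10.3, 10.5, 11.5 and 12.4 CPM against 15.1, 19, 19.4, 17.7 and 16.3 CPM, a log2 fold change of -0.65 ± 0.18. Limma-voom with quality weights gave adjusted p-values of 0.0397 for Sertad4, for Tmem198b and for Ftsj1, the last named after its value was seen. Matn2, a matrix protein, differed by -0.89 ± 0.25. Gpx4, the peroxidase that guards against ferroptosis, was at 2.50 to 3.81 CPM against 5.12 to 10.4 CPM, an uncertain value because the gene has processed copies. Lss, an enzyme of cholesterol synthesis, was at 7.47 to 8.91 CPM against 11.1 to 19.1 CPM.

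Several lists of tumour and stromal functions had medians between -0.13 and 0.10. Cell cycle genes had a median of -0.13 with 6 of 20 above 0, hypoxia and glycolysis genes -0.07 with 7 of 15, fibroblast and collagen genes -0.07 with 6 of 13, and endothelial genes 0.10 with 7 of 10. MAPK pathway feedback genes, among them Spry1, had a median of -0.33 with 6 of 13 above 0, and it was -0.0499 without anti-PD-1 replicate 4, -0.11 without vehicle replicate 2, -0.18 without vehicle replicate 3, -0.21 without anti-PD-1 replicate 5 and -0.10 with the muscle score as a term. Prostaglandin E2 genes had a median of 0.07 with 7 of 12 above 0. Ptgs2, the inducible cyclooxygenase, was at 147, 158, 30.8 and 61.2 CPM against 61.0, 149, 85.5, 49.4 and 60.0 CPM, with full overlap. The receptor Ptger4 differed by 0.09 ± 0.33 and Ptger2 by 1.09 ± 0.50, the latter at no more than 2.16 CPM.

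The anti-PD-1 effect of day 2 was next set beside 2 other settings, the effect on day 5 without EPAT and the effect on day 2 in tumours given EPAT. None of these 3 contrasts shares a library with another, but both tests of a difference use the 9 libraries described above. The test of the difference called 0 genes (0%) for day 5 minus day 2 and 0 genes (0%) for with minus without EPAT, with smallest adjusted p-values of 1.00 and 0.228 in edgeR. At an unadjusted p under 0.05 there were 503 genes (3.34%) and 1097 genes (7.28%), and DESeq2 called 2 genes in each. The median of the interferon-gamma response list was 0.97 on day 2, 0.28 on day 5 and 0.36 with EPAT, and 1 and 3 of its 22 members had an unadjusted p under 0.05 for the respective difference. The inflammatory monocyte medians were 1.03, 0.32 and -0.003, with 0 and 4 of 11 members under that p. T cell genes had medians of 0.39, 0.99 and 0.11, with 0 and 1 of 19 members under it.

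**Figure D5:**
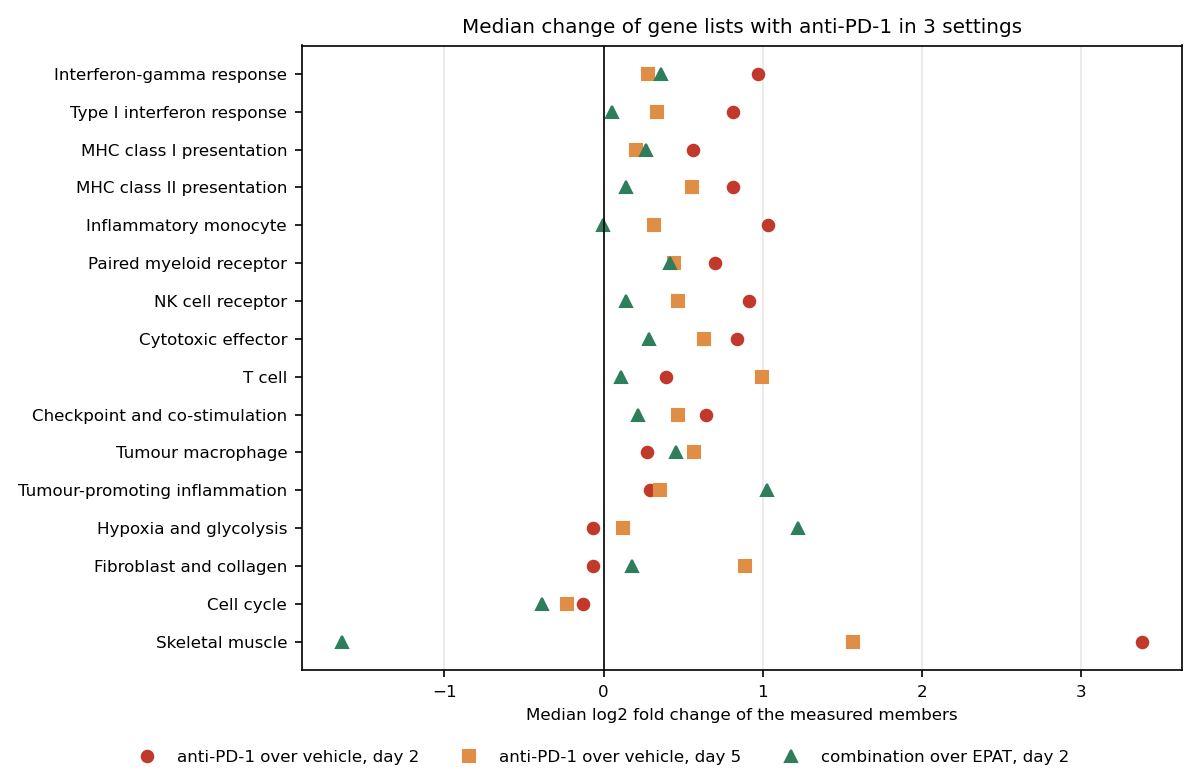
Median log2 fold change of the measured members of 16 gene lists for anti-PD-1 over vehicle on day 2 (circles), the same on day 5 (squares), and the combination over EPAT on day 2 (triangles). Interferon-gamma response medians are 0.97, 0.28 and 0.36, inflammatory monocyte medians 1.03, 0.32 and -0.003, and skeletal muscle medians 3.38, 1.56 and -1.64.

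Ccr2 differed by 1.18 ± 0.32 on day 2, by 0.37 ± 0.30 on day 5 and by -0.03 ± 0.30 with EPAT. Cd226 differed by 1.69 ± 0.46, 1.06 ± 0.43 and -0.27 ± 0.42, and Gpr141 by 1.49 ± 0.36, -0.14 ± 0.34 and -0.04 ± 0.34. These 3 genes were named for their small p on day 2 without EPAT, a choice that by itself favours lower values in the other settings, so no test of the difference is given for them. Adm, a hypoxia-induced peptide hormone, was the reverse, with -0.35 ± 0.54, 0.69 ± 0.50 and 2.51 ± 0.52. The naming rule did not select Adm, which is described by its value, and such a choice favours a large difference between settings. The hypoxia and glycolysis list had a median of 1.22 with EPAT, 15 of 15 members above 0, and 10 of 15 members had an unadjusted p under 0.05 for the difference with minus without EPAT. None of these differences passed adjustment. Skeletal muscle genes differed in the same direction as Ccr2 and Cd226, with 12 of 12 members under that p and medians of 3.38 without and -1.64 with EPAT, and their part in the other differences between these settings was not tested.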

How the data were processed

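The members and gene lists were chosen with earlier results of these data known. Libraries were QuantSeq forward 3′ libraries from 500 ng of total RNA per the labels' protocols, so a count carries no gene length term. The protocol text speaks of extraction on day 4, which matches neither labelled time point, and the labelled time point was used. The authors deposited a table of raw counts per Ensembl gene (39179 genes) and a table of log2 CPM (16095 genes). Per the submitters' processing notes bcl2fastq, STAR, featureCounts and limma were used with builds mm10 and GRCm38. For these tools no version is given in the sources used here, nor the strand setting or how reads matching several genes were treated.

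Counts were fitted with edgeR 4.0.16 (R 4.3.3, limma 3.58.1): filterByExpr with minimum count 10 and total 15 (15070 genes kept), TMM scaling, and a robust quasi-likelihood model of all 39 libraries with 1 mean per group (31 residual degrees of freedom). Tests were 2-sided with Benjamini-Hochberg adjustment over all genes, and a standard error is the log2 fold change over the square root of F. Differences between anti-PD-1 effects were contrasts in the same fit. CPM values are TMM-scaled. The fit was tested on simulated data. No pair of replicates agreed within counting noise (lowest chi-square per gene 15.3). The pairs with anti-PD-1 replicate 4 stood at 98.0 to 103, other anti-PD-1 pairs at 17.8 to 39.5, and vehicle pairs at 15.3 to 71.6. Symbols and positions came from GENCODE for GRCm38 by Ensembl identifier (14912 of the tested genes matched), and promoter windows from RefSeq GRCm38.p6.

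Named genes were the 10 in each direction with the smallest unadjusted p and the 10 with the widest gap between the groups (mean log2 CPM of at least 1, no predicted or clone names), up to 4 members of each list by p (of these, the ones under 0.05 and otherwise the first), and a fixed set on the PD-1 axis, effectors and prostaglandin E2. A few further list members are described by value. Alternatives covered the test (DESeq2 1.42.0, limma), scaling, filter, libraries fitted, covariates and each library left out. Some genes that the rule names are not reported here.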

Additional observations from a re-analysis of the deposited data

Results flagged for a closer look

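Within each group the highest or lowest library was compared with the next by Dixon's ratio of gap to range, on list scores and on log2 CPM of the named genes. Of 320 sets of 4 or 5 libraries, 26 (8.12%) had a library beyond the 95% critical value, where chance gives about 1 in 20. The sets are not independent, because genes of a list move together.

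Anti-PD-1 replicate 5 was the isolated library in 6 sets. Its interferon-gamma response score was 7.29, and it was above the other anti-PD-1 libraries in Gpr141 (52.3 CPM), Plac8 (368 CPM), Cd274 (124 CPM), Cxcl11 (26.9 CPM) and the NK cell receptor gene Klre1 (9.52 CPM). Vehicle replicate 1 was isolated in 9 sets. It was high in the B and plasma cell score (5.41), the lymph node stroma and venule score (5.13), Glycam1 (525 CPM), Ms4a1 (95 CPM), Cd79b (54.8 CPM), Bank1 (60.4 CPM), Btla (31 CPM) and the immediate early gene Ier2 (27.1 CPM), and low in the score of mitochondrially encoded genes (9.94).

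Vehicle replicate 2 was isolated in 5 sets, being high in Krt10 (30.7 CPM) and low in the MHC class I score (5.37), Tbx21 (0.624 CPM), Sh2d2a (8.62 CPM) and Ptger4 (8.74 CPM). Vehicle replicate 4 was high in the glycolytic gene Pfkp (56.4 CPM) and in the homeobox gene Hoxa5 (40.0 CPM), and vehicle replicate 3 was low in Tgtp1 (0.965 CPM). Anti-PD-1 replicate 1 was low in the keratinocyte score (-0.93) and high in H2-Q6 (6.42 CPM), and anti-PD-1 replicate 2 was low in Bank1 (2.05 CPM).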

How the results depend on the processing

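There were 25 or 26 alternatives per list, and 17 to 26 per named gene (25 or more for 109 of 120). Of the list medians, 1025 moved by less than 1 SD of the list scores (the larger of the 2 groups' SDs) and 9 by more. That SD is wide where single libraries stand apart, so this tally does not measure stability. The skeletal muscle median went from 3.38 to -0.03 with the muscle score as a term, within its SD of 4.21. The type I interferon median went from 0.81 to 0.30 without anti-PD-1 replicate 5, within its SD of 0.79. Among values of named genes, 3035 kept their direction and side of the threshold, 18 changed sign and 4 newly passed. The genes called on day 2 were 0 in edgeR, 2 with DESeq2 and 4 with limma-voom and quality weights. DESeq2 also called 2 genes for day 5 minus day 2 and 2 for with minus without EPAT, and leaving out each library in turn gave 0 to 1 for the latter, the 1 without anti-PD-1 replicate 2. The 1073 genes at an unadjusted p under 0.05 became 3350 with limma-voom and quality weights, 711 with the stricter filter and 641 with the muscle score as a term. Leaving out each library in turn gave 567 (without anti-PD-1 replicate 5) to 1593 (without anti-PD-1 replicate 4). Genes higher without overlap were 246 with TMM and 152 with total-count scaling. The stricter filter tested 11196 genes and the main fit 15070. The cause of these shifts was not tested.

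Without vehicle replicates 1 and 2 the log2 fold changes that changed sign were 0.0619 for Glycam1, 1.47 for Ms4a1, 0.0613 for Mzb1, 0.34 for Bank1, 0.85 for Btla, 0.0893 for Ager and -0.00399 for Ptger4. Over the libraries left out in turn, Glycam1 ranged from -8.49 to 0.21, Ms4a1 from -6.39 to 1.25, Mzb1 from -4.73 to 0.38, Bank1 from -2.25 to 0.34, Btla from -2.11 to 1.04, Ccr3 from -0.0366 to 0.86, Ptgs2 from -0.0240 to 0.65 and Ptger4 from -0.17 to 0.21. Ptger4 was -0.18 with limma-voom and quality weights, and Cd8a was -0.14 with the muscle score as a term.

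Same-numbered anti-PD-1 and vehicle libraries correlated at -0.16, 0.48, 0.29 and 0.34 in their deviations from group means. Unlike-numbered ones correlated at -0.66 to 0.55. These values do not settle whether replicate numbers mark pairs, and the main fit used no pairing. With a replicate block no gene was called (0), and 959 had an unadjusted p under 0.05: 615 were higher and 344 lower.

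With 4 against 5 libraries and a common coefficient of biological variation of 0.323, the spread between libraries limits these comparisons. Low genes such as Ptger2 and Ifng rest on few counts.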

Other observations

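Further lists gave the following values on day 2. All 6 measured genes of the CXCR3 and CXCR6 axis were above 0 with a median log2 fold change of 0.59. Tumour-promoting inflammation genes had 12 of 13 above 0 with a median of 0.29 and 0 at an unadjusted p under 0.05, and the median was 0.0692 without anti-PD-1 replicate 2 and 0.54 without vehicle replicate 5. Il1b, the inflammatory cytokine on that list, was at 129, 109.6, 116 and 145 CPM with anti-PD-1 and at 54.0, 53.6, 68.2, 88.2 and 112 CPM with vehicle, with anti-PD-1 replicate 2 below vehicle replicate 5.

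Immediate early genes had a median of -0.08, heat shock genes -0.05 and melanoma dedifferentiation genes 0.03. Hspb1, a small heat shock protein abundant in muscle, was at 17.4, 4.41, 1.58 and 29.7 CPM with anti-PD-1 and at 2.11, 6.24, 1.53, 1.29 and 5.32 CPM with vehicle, high in the 2 libraries with the highest muscle scores. Mitochondrially encoded genes had a median of -0.30 with 3 of 7 above 0. That median was -0.14 without vehicle replicate 3 and -0.41 without vehicle replicates 1 and 2. In the libraries with lung transcripts it was -0.00916. The genes mt-Co2, mt-Co3 and mt-Atp6 had 0 counts in every library compared.

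Lung epithelium transcripts were present in 4 of 4 anti-PD-1 libraries, at a summed 58.8 to 136 CPM, and in 3 of 5 vehicle libraries, the other 2 standing at 2.07 and 2.49 CPM. In the fit of the libraries with lung transcripts only, the medians were 1.05 for the interferon-gamma response list, 1.30 for inflammatory monocytes and 0.97 for paired myeloid receptors, but 0.52 for CC chemokines and 0.00607 for dendritic cells, against 0.97, 1.03, 0.70, 0.78 and 0.35 with all libraries.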
